A study of Mus musculus with 6 samples.

Results

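The enzymes examined here build serine from a glycolytic intermediate and pass its carbon into the folate cycle. They are encoded by 10 genes, chosen by name out of the 23282 rows of the deposited count table. Phgdh, Psat1 and Psph make serine in the cytosol. Shmt1 and Mthfd1 run the cytosolic arm of the folate cycle, and Shmt2, Mthfd2, Mthfd2l, Mthfd1l and Aldh1l2 run its mitochondrial arm. The RNA came from alveolar macrophages, the resident phagocytes of the air spaces, sorted from mouse lung as CD45+ CD11c+ F4/80+ SiglecF+ CD11b- cells. The first group, Sdha-KO (3 libraries), came from mice with floxed Sdha alleles and LysM-Cre, a Cre recombinase expressed from the Lyz2 locus in myeloid cells in general and not in alveolar macrophages alone. The second group, wildtype (3 libraries), is labelled by that word alone, and the labels do not say whether these mice carried floxed alleles or Cre. Ages, sexes and any pooling of mice are not given, so each p-value reflects how far these 6 libraries scatter and no more, and part of that scatter may be technical. The product of Sdha is the catalytic flavoprotein of succinate dehydrogenase, which oxidises succinate in the tricarboxylic acid cycle and feeds electrons to the respiratory chain.

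Serine made from 3-phosphoglycerate, or taken up, gives a one-carbon unit to tetrahydrofolate when it is cleaved to glycine. In most proliferating cells that cleavage runs in mitochondria, the unit is oxidised there in steps that need NAD+, and it leaves as formate, which the cytosolic arm uses for purines, thymidylate and methionine. Several of these genes, Mthfd2, Phgdh, Psat1 and Shmt2 among them, are known targets of the transcription factor ATF4, which acts when mitochondria or amino acid supply are disturbed.

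Libraries were made with QuantSeq, which tags each polyadenylated RNA near its 3' end, so a level does not scale with transcript length. Levels are given as CPM, each count over its library total scaled up and corrected by TMM composition factors. How fully reads were counted can still differ by gene, so shares and ratios between genes describe counted reads only. The glycolytic gene Eno1, for example, had 3, 0 and 0 counts in Sdha-KO replicates 1 to 3. In wildtype replicates 1 to 3 it had 0, 0 and 4 counts. Total counts ran from 5400160 to 8472907 per library. The ribosomal RNA row Rn45s alone held from 20.9% of the total (Sdha-KO replicate 1) to 57.6% (wildtype replicate 2). The totals behind CPM include that row. The labels give each replicate number again as a batch number, with 1 library of each genotype per batch. The batch 1 libraries stood apart from the rest, with 5438 genes detected in Sdha-KO replicate 1 and 7893 in wildtype replicate 1, against 11383 to 13050 in the other libraries. Sdha had 313, 113 and 153 counts in Sdha-KO replicates 1 to 3, against 457, 295 and 567 counts in wildtype replicates 1 to 3. Its groups did not overlap, at 23.3 ± 2.59 CPM in Sdha-KO and 64.6 ± 8.13 CPM in wildtype macrophages (SD, n = 3 each), and it was not called (edgeR adjusted p = 1.00). Which exons are flanked by loxP sites is not given, so a 3' tag may lie outside the deleted part. Of 10 alveolar macrophage markers all 10 passed the filter on low counts, and 7 had a log2 fold change below 0. Without overlap, 3 lay below wildtype (Siglecf, Ear2 and Krt79), against 9.27% of all tested genes, and 1 above (Car4), against 5.04%. None of the 10 was called in edgeR or DESeq2 with all 6 libraries (4 at an unadjusted p under 0.05 in edgeR). When batch 1 was dropped and replicate entered the model beside genotype, edgeR called Car4, Ear2, Krt79, Mrc1, Fabp4 and Siglecf. That fit left 1 residual degree of freedom, and 3.01% of all genes passed. Without batch 1, Car4 and Fabp4 lay higher in Sdha-KO and the rest of these lower. The sum of all 10 markers, 5624 to 7665 CPM in Sdha-KO and 6930 to 8240 CPM in wildtype libraries, is mostly Chil3 (4311 ± 967 CPM in Sdha-KO and 4728 ± 616 CPM in wildtype, SD, n = 3 each). The sort marker Siglecf was at 0, 39.6 and 45.3 CPM in Sdha-KO replicates 1 to 3, against 103, 138 and 132 CPM in wildtype replicates 1 to 3, and Ear2 was at 216 ± 78.3 CPM in Sdha-KO and 782 ± 131 CPM in wildtype macrophages (edgeR adjusted p = 0.122, and 0.0155 without both batch 1 libraries). The defining eosinophil markers Epx and Prg2 were at 0 in all 6 libraries. In bulk RNA, fewer cells of a type and less RNA per cell cannot be told apart.

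Mthfd2 was the 1 gene of the set whose genotypes did not overlap. None of the 7 tested members passed edgeR's quasi-likelihood test at an adjusted p under 0.05, which 0.0502% of the 9963 tested genes did (0.0401% higher and 0.0100% lower in Sdha-KO), and 1 of 7 (Mthfd2) had an unadjusted p under 0.05, against 2.64% of all tested genes. DESeq2 without a block also called 0 of the 7, against 0.211% of all genes. Groups did not overlap in 1 of the 7 and in 14.3% of all tested genes. The other 3 members, Shmt1, Mthfd2l and Aldh1l2, had too few counts to be tested. All 7 tested members had a fitted log2 fold change above 0, as had 45.0% of all tested genes, and the median was 0.92 for the 7 and -0.13 for all genes. Without Sdha-KO replicate 1, or without both batch 1 libraries, 3 and 2 of these signs turned, in that order, as given with each gene. The plot of CPM by library shows the whole set.

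**Figure D1:**
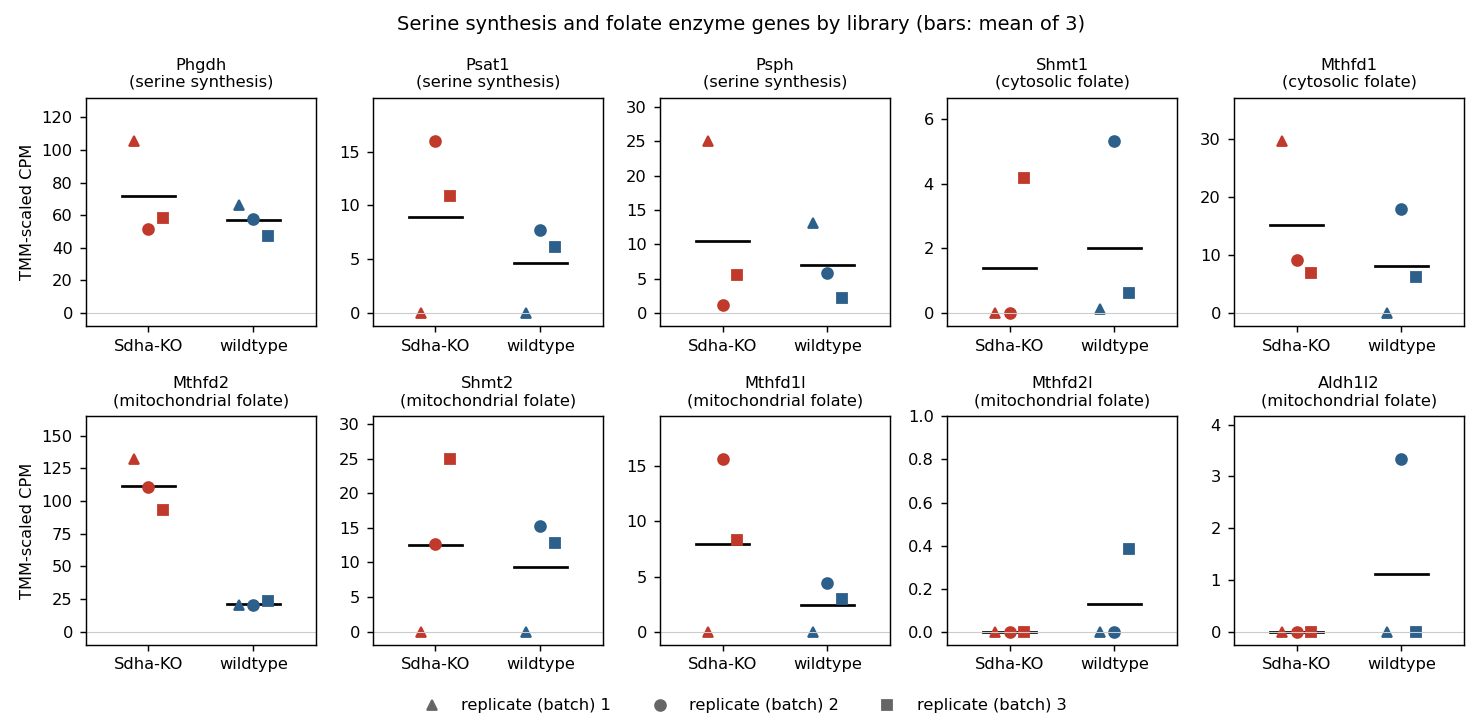
TMM-scaled CPM (y axis, linear, 1 scale per gene) of the 10 genes in each library, with Sdha-KO in red at the left and wildtype in blue at the right of each panel; symbols give the replicate, which is also the batch, and bars the mean of 3. Mthfd2 lies at 93.0 to 132 CPM in Sdha-KO and 20.0 to 23.2 CPM in wildtype libraries, while in every other panel the genotypes overlap and Psat1, Shmt2 and Mthfd1l are at 0 in both batch 1 libraries.

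Mthfd2 encodes the mitochondrial methylenetetrahydrofolate dehydrogenase and cyclohydrolase, which oxidises the one-carbon unit with NAD+. It had 1578, 593 and 624 counts in Sdha-KO replicates 1 to 3, against 164, 90 and 182 counts in wildtype replicates 1 to 3. As CPM this was 132, 110 and 93.0 in Sdha-KO and 20.1, 20.0 and 23.2 in wildtype libraries. The lowest Sdha-KO library was far above the highest wildtype library, and the level was 112 ± 19.4 CPM in Sdha-KO and 21.1 ± 1.81 CPM in wildtype macrophages (SD, n = 3 each). Groups separated in this direction in 5.04% of all tested genes. Within batches 1, 2 and 3 the Sdha-KO level was 6.55, 5.52 and 4.01 times the wildtype level. Of 3801 genes with more than 3 counts in every library, 76 were at least 2-fold higher in Sdha-KO in all 3 batches (2.00%), and 13 of the 3801, Mthfd2 included, had a smallest within-batch fold as large as that of Mthfd2. These last counts were set up after the Mthfd2 values were seen.

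The fitted difference of Mthfd2 was 5.29-fold (log2 fold change 2.40, SE 0.60), the rank 25 of 9963 by p-value. It did not pass over all genes (edgeR unadjusted p = 0.0017, adjusted p = 0.677). With the replicate number as a block the adjusted p was 0.966 in edgeR, where 0% of all genes passed, and 0.0492 in DESeq2, where 0.723% did (0.063 in DESeq2 without the block). Without both batch 1 libraries the log2 fold change was 2.25 (edgeR adjusted p = 0.059, with 0.251% of 10757 genes passing), and with the block as well the adjusted p was 0.000817, with 3.01% of genes passing on 1 residual degree of freedom. Those 4 libraries also differed by genotype in the sex-linked gene Xist, which had 498 and 822 counts in Sdha-KO replicates 2 and 3 and 4608 and 6055 counts in wildtype replicates 2 and 3, and in the Y-linked gene Ddx3y, with 354 and 432 counts in Sdha-KO and 0 and 143 counts in wildtype. In batch 1 the direction was the opposite, with 2683 Xist counts in Sdha-KO and 0 in wildtype, and 0 Ddx3y counts in Sdha-KO and 222 in wildtype. The gene lies on chromosome 6 (83305691 to 83325908, minus strand, GENCODE M21 on mm10), and no other annotated gene overlaps its exons.

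Markers of other cells were read beside this level. Summed markers of conventional dendritic cells (6 of 8 tested, 5 positive) were at 5.17, 89.5 and 175 CPM in Sdha-KO replicates 1 to 3 and at 18.8, 11.3 and 29.5 CPM in wildtype replicates 1 to 3. Those of monocytes or interstitial macrophages (7 of 8 tested, 7 positive) were at 79.5, 137 and 228 CPM in Sdha-KO and 30.4, 41.1 and 54.1 CPM in wildtype libraries, without overlap. Of the 7 tested only 1, Ccr2, separated the genotypes by itself, against 5.04% of all tested genes with Sdha-KO above. Ccr2 was at 79.0, 27.7 and 68.1 CPM in Sdha-KO and 5.39, 13.1 and 21.5 CPM in wildtype libraries. In Sdha-KO replicate 1 it made up nearly the whole sum. Cycling-cell markers summed to 105 to 446 CPM in Sdha-KO and 416 to 583 CPM in wildtype libraries, and 2 of 12 were positive. Neutrophil markers (4 of 6 tested, 4 positive) summed to 164 to 218 CPM in Sdha-KO and 73.9 to 107 CPM in wildtype libraries, again without overlap. None of the 4 tested separated the genotypes by itself. The untested Csf3r had 1, 0 and 0 counts in Sdha-KO and 0, 25 and 35 counts in wildtype libraries. DESeq2 with the replicate block called Cxcr2 and Ccr7, with 0.723% of all genes passing. Without batch 1 and with the block, edgeR called both and C1qb, with 3.01% of all genes passing. The part of any of these cells in the level of Mthfd2 was not tested.

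The other mitochondrial members had fewer counts. Mthfd1l, the formate-releasing synthetase of mitochondria, had 0, 84 and 56 counts in Sdha-KO replicates 1 to 3, against 0, 20 and 23 counts in wildtype replicates 1 to 3. Both batch 1 libraries were at 0, and in batches 2 and 3 the Sdha-KO level was 3.52 and 2.85 times the wildtype level. Its log2 fold change was 1.70 with an SE of 2.64 (edgeR adjusted p = 1.00), and 1.71 with an SE of 1.01 without both batch 1 libraries (adjusted p = 0.658). Shmt2, which cleaves serine to glycine in mitochondria, had 0, 68 and 167 counts in Sdha-KO replicates 1 to 3 and 0, 69 and 101 counts in wildtype replicates 1 to 3. Its Sdha-KO level was 0.826 times the wildtype level in batch 2 and 1.94 times in batch 3, so the batches disagreed in direction. The fitted log2 fold change of Shmt2 was 0.41 (SE 2.45, edgeR adjusted p = 1.00). The last exon of Shmt2 overlaps that of Ndufa4l2 on the other strand, and whether strand was used in counting is not given, so its count is uncertain; Ndufa4l2 itself had 0, 0 and 69 counts in Sdha-KO and 0, 11 and 17 counts in wildtype libraries.

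Mthfd2l, a paralog of Mthfd2 with the same reactions, and Aldh1l2, which oxidises mitochondrial formyl-tetrahydrofolate to carbon dioxide with gain of NADPH, were close to absent. Mthfd2l had no count in the Sdha-KO libraries and 3 counts in 1 wildtype library. Aldh1l2 had no count in the Sdha-KO libraries and 15 counts in wildtype replicate 2 alone, and its 3' end overlaps D10Wsu102e on the other strand. With no read counted, the limit set by counting error alone is 3 counts, or 0.25 to 0.666 CPM over the 6 libraries. Among the mitochondrial genes, Mthfd2 alone gave 100%, 79.6% and 73.7% of the summed CPM in Sdha-KO replicates 1 to 3 and 100%, 46.4% and 58.9% in wildtype replicates 1 to 3.

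Zeros in batch 1 were common for genes at this level. Of 4547 tested genes with a mean of 5 to 25 CPM over the libraries of batches 2 and 3, 63.3% had no count in Sdha-KO replicate 1, 35.7% had none in wildtype replicate 1 and 25.2% had none in either. Psat1, Shmt2 and Mthfd1l, at means of 10.2, 16.4 and 7.83 CPM over those 4 libraries, were among the 25.2%. For these genes batch 1 gives no comparison of the genotypes, and the estimates rest on 2 libraries a genotype.

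On mm10 with GENCODE M21, where all 10 genes are protein-coding, Mthfd1l lies on chromosome 10 (3973118 to 4167081, plus strand), Shmt2 on chromosome 10 (127517123 to 127522444, minus strand) and Aldh1l2 on chromosome 10 (83487450 to 83534140, minus strand). Mthfd2l lies on chromosome 5 (90931117 to 91021368, plus strand). Of the cytosolic pair, Mthfd1 lies on chromosome 12 (76255298 to 76319803, plus strand) and Shmt1 on chromosome 11 (60788104 to 60811718, minus strand). The serine synthesis genes are on the minus strand, Phgdh on chromosome 3 (98313170 to 98339990), Psat1 on chromosome 19 (15904678 to 15947337) and Psph on chromosome 5 (129765558 to 129787449).

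The cytosolic folate members differed in direction from batch to batch. Mthfd1 encodes the cytosolic enzyme that joins the dehydrogenase, cyclohydrolase and formyl-synthetase steps in 1 protein. It had 356, 49 and 46 counts in Sdha-KO replicates 1 to 3, against 0, 81 and 49 counts in wildtype replicates 1 to 3. Sdha-KO replicate 1 was the highest library and wildtype replicate 1 the lowest, while in batches 2 and 3 the Sdha-KO level was 0.507 and 1.10 times the wildtype level. The fitted log2 fold change of Mthfd1 was 0.92 (SE 2.17, edgeR adjusted p = 1.00), -0.59 (SE 0.88) without both batch 1 libraries and -0.00487 without Sdha-KO replicate 1. Shmt1, the cytosolic serine hydroxymethyltransferase, had 0, 0 and 28 counts in Sdha-KO replicates 1 to 3 and 1, 24 and 5 counts in wildtype replicates 1 to 3, so its higher libraries lay in both genotypes. The 3' end of Shmt1 overlaps Smcr8 on the other strand, which had 717, 165 and 69 counts in Sdha-KO and 0, 85 and 90 counts in wildtype libraries.

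**Figure D2:**
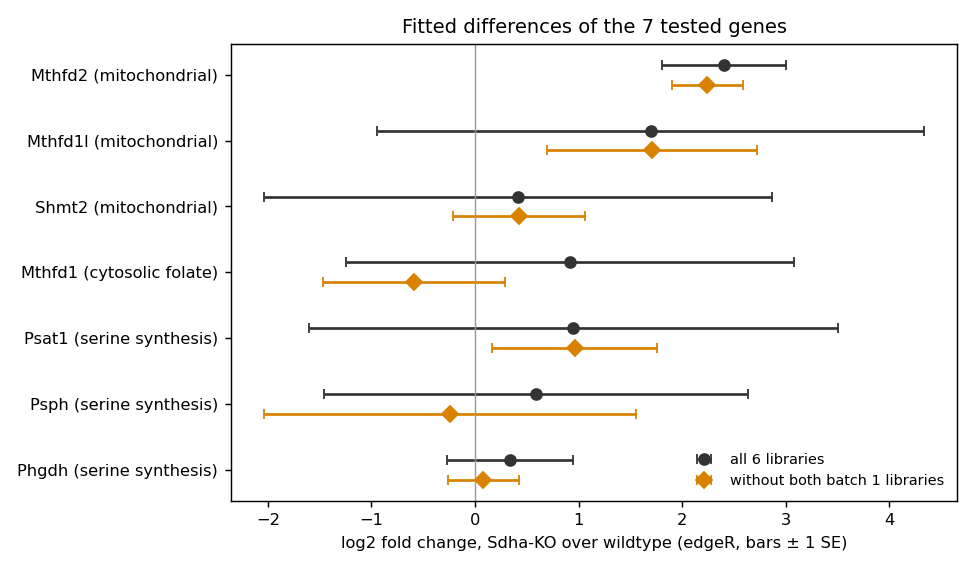
Fitted log2 fold change of Sdha-KO over wildtype (x axis, edgeR, bars 1 SE to each side) for the 7 tested genes (y axis), with all 6 libraries (black circles) and without both batch 1 libraries (orange diamonds). The bars of Mthfd2 lie wholly above 0 in both fits at 2.40 and 2.25, those of Mthfd1l and Psat1 only without batch 1, and Mthfd1 and Psph change sign between the fits.

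The summed levels of the folate arms were then contrasted within each library, as a description without a test. The 5 mitochondrial genes summed to 132, 139 and 126 CPM in Sdha-KO replicates 1 to 3, against 20.1, 43.1 and 39.3 CPM in wildtype replicates 1 to 3. The cytosolic pair summed to 29.7, 9.11 and 11.0 CPM in Sdha-KO and 0.123, 23.3 and 6.88 CPM in wildtype libraries. The mitochondrial sums did not overlap between genotypes and the cytosolic sums did. The log2 ratio of mitochondrial over cytosolic sums (1 CPM added to each) was 2.11, 3.79 and 3.40 in Sdha-KO replicates 1 to 3 and 4.23, 0.86 and 2.36 in wildtype replicates 1 to 3, or 3.10 ± 0.88 and 2.48 ± 1.69 (SD, n = 3 each). The ratio was lower in Sdha-KO by 2.12 in batch 1 (difference -2.12), where wildtype replicate 1 had 1 cytosolic count, and higher by 2.93 and 1.05 in batches 2 and 3. The mean difference of 0.62 was thus smaller than the spread within wildtype, and it was -0.22 without wildtype replicate 2, 1.49 without wildtype replicate 1 and 0.27 without Sdha-KO replicate 2.

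The separation of the mitochondrial sums came from Mthfd2. With Mthfd2 left out, the remaining mitochondrial genes summed to 0, 28.3 and 33.2 CPM in Sdha-KO replicates 1 to 3, against 0, 23.1 and 16.2 CPM in wildtype replicates 1 to 3. Their log2 ratio to the cytosolic pair was -4.94, 1.53 and 1.51 in Sdha-KO and -0.17, -0.01 and 1.12 in wildtype libraries. In batches 2 and 3 it was higher in Sdha-KO by 1.55 and 0.38, and in batch 1, with no count in the numerator, the value is set by the added 1 CPM.

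**Figure D3:**
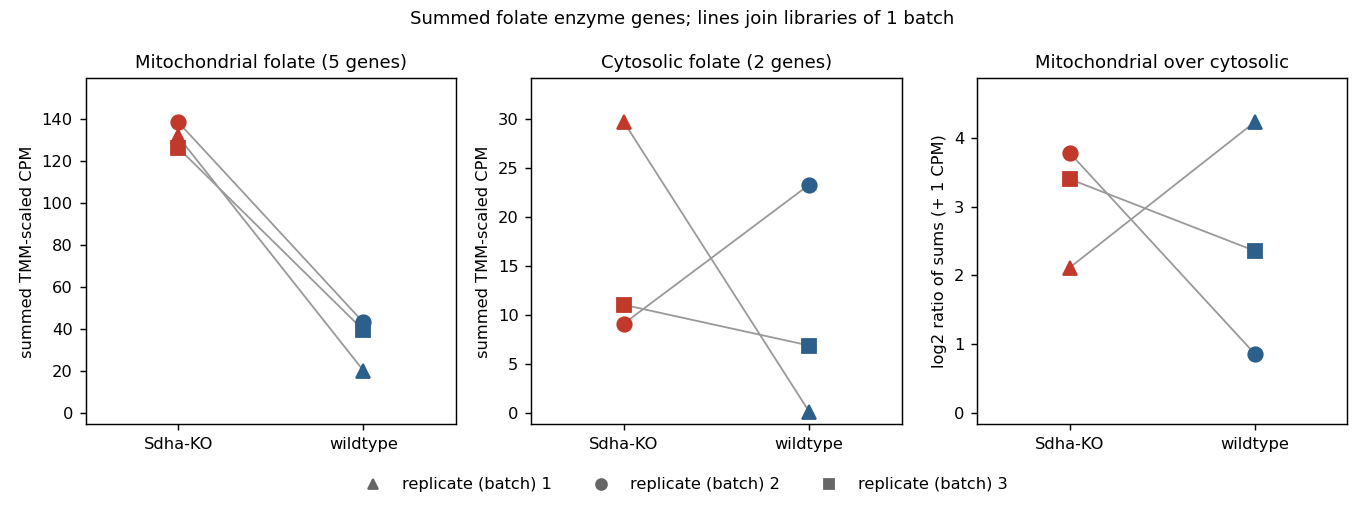
Summed TMM-scaled CPM of the mitochondrial folate genes (left) and of the cytosolic pair (middle), and the log2 ratio of the sums with 1 CPM added (right), per library; Sdha-KO is at the left of each panel, wildtype at the right, and lines join libraries of 1 batch. The mitochondrial sums separate at 126 to 139 CPM against 20.1 to 43.1 CPM, and the ratio is higher in Sdha-KO in batches 2 and 3 and lower in batch 1.

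Phgdh, the dehydrogenase that commits 3-phosphoglycerate to the pathway, had the highest CPM of the serine synthesis genes in every library. It had 1265, 278 and 391 counts in Sdha-KO replicates 1 to 3, against 540, 259 and 372 counts in wildtype replicates 1 to 3. In CPM this was 106, 51.7 and 58.3 in Sdha-KO and 66.2, 57.5 and 47.4 in wildtype libraries, so the groups overlapped and only Sdha-KO replicate 1 stood above all others. Phgdh averaged 71.8 ± 29.4 CPM in Sdha-KO and 57.0 ± 9.41 CPM in wildtype macrophages (SD, n = 3 each), with a log2 fold change of 0.33 (SE 0.61, edgeR adjusted p = 1.00). The log2 fold change was 0.08 (SE 0.34) without both batch 1 libraries and -0.051 without Sdha-KO replicate 1. Phgdh held 80.8%, 75.1% and 78.0% of the summed serine synthesis CPM in Sdha-KO replicates 1 to 3 and 83.5%, 80.9% and 85.1% in wildtype replicates 1 to 3.

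Psat1, the aminotransferase of the middle step, had 0, 86 and 73 counts in Sdha-KO replicates 1 to 3 and 0, 35 and 48 counts in wildtype replicates 1 to 3. In batches 2 and 3 the Sdha-KO level was 2.06 and 1.78 times the wildtype level, and batch 1 held no count. The log2 fold change of Psat1 was 0.95 (SE 2.55) and 0.96 (SE 0.80) without both batch 1 libraries (edgeR adjusted p = 0.79). Psph, the phosphatase that releases serine, had 300, 6 and 37 counts in Sdha-KO replicates 1 to 3 and 107, 26 and 17 counts in wildtype replicates 1 to 3. Its Sdha-KO level was 1.91, 0.193 and 2.55 times the wildtype level in batches 1, 2 and 3, so batch 2 went against the others. The fitted log2 fold change of Psph was 0.59 (SE 2.04, edgeR adjusted p = 1.00), -0.24 without both batch 1 libraries and -1.08 without Sdha-KO replicate 1.

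Because Mthfd2 and its cytosolic counterpart Mthfd1 catalyse the same oxidation in different compartments and had different count patterns, the 250 bases before their RefSeq start sites (GRCm38.p6) are shown 5' to 3' on the gene's strand. Capitals mark CCAAT, the box bound by NF-Y, on either strand (ATTGG is its complement).
Mthfd2, chr6:83317605-83317854, minus strand: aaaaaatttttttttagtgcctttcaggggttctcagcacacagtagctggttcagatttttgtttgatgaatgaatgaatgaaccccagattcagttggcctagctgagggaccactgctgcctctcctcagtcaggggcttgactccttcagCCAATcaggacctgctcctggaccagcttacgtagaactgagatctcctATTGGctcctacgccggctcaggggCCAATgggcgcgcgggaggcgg
Mthfd1, chr12:76254982-76255231, plus strand: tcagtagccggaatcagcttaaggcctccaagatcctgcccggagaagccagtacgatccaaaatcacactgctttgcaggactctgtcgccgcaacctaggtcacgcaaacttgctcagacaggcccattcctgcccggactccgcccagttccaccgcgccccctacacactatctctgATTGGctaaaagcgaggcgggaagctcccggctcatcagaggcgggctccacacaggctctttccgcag
The Mthfd2 window holds 3 CCAAT matches and the Mthfd1 window 1. At least 1 match stands in 33.9% of all 32851 promoter windows of this length and 3 or more in 2.79%. TGATGNAA, a core form of the composite site of ATF4 and C/EBP factors, stands in 3.45% of all windows, and CACGTG, the E-box bound by MYC, in 6.02% (both strands searched, and none of the 3 motifs lies within another). Neither was found in the windows of the 9 members that RefSeq gives a promoter for, Aldh1l2 being without one. These are matches of letters in a short window and say nothing of binding.

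Genes whose levels ran most like Mthfd2 were sought among 4045 others with at least 1 count in every library and a mean of at least 10 CPM. By Pearson correlation of log2(CPM + 1) over the 6 libraries, which share batch and depth, these were Hilpda (r = 0.995), Cdkn1a (0.993), Rpl23 (0.985), Ctsk (0.981) and Pgk1 (0.980). Pgk1, the glycolytic kinase that makes 3-phosphoglycerate, had 607, 268 and 170 counts in Sdha-KO replicates 1 to 3 and 69, 37 and 72 counts in wildtype replicates 1 to 3. Its log2 fold change was 2.28 (SE 1.39, edgeR adjusted p = 1.00). The correlations are a description, since the 6 libraries fall in 2 groups that none of these genes overlapped between.

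Around the set, 8 further lists of pathway genes held 79 genes, of which 54 were tested. One passed, Gdf15, against 0.0502% of all tested genes; 36 of the 54 were positive, and their median log2 fold change was 0.61. Groups did not overlap in 15 of the 54, with Sdha-KO above in 11 and below in 4, against 5.04% and 9.27% of all tested genes.

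Glycolysis and transport supply the pathway. Of the glycolytic genes around 3-phosphoglycerate, 6 of 6 tested were positive (median 1.40), against 45.0% of all tested genes. In 4 of the 6, Sdha-KO lay above wildtype without overlap, against 5.04% of all tested genes. With all 6 libraries, TMM factors and the filter on low counts, none passed in edgeR (2 at an unadjusted p under 0.05). Pgam1, phosphoglycerate mutase, had 2743, 973 and 1308 counts in Sdha-KO replicates 1 to 3 and 68, 93 and 263 counts in wildtype replicates 1 to 3, without overlap (edgeR adjusted p = 0.103), and it passed in 8 of 18 alternatives, among them DESeq2 and edgeR without both batch 1 libraries (adjusted p = 0.0266). Aldoa, aldolase, had 795 ± 173 CPM in Sdha-KO and 514 ± 155 CPM in wildtype macrophages, and Pkm, pyruvate kinase, had 448 ± 212 CPM in Sdha-KO and 135 ± 19.2 CPM in wildtype macrophages (SD, n = 3 each). Without both batch 1 libraries and with the replicate block, edgeR also called Pkm (adjusted p = 0.00258) and Aldoa (adjusted p = 0.0425). In that fit 3.01% of all genes passed on 1 residual degree of freedom. Without the filter on low counts, edgeR with all 6 libraries called Pkm as well (adjusted p = 0.00468), where 48 of 15381 genes passed. Pkm thus passed in 2 of 18 alternatives and Aldoa in 1. Exons of Aldoa overlap Fam57b on the other strand and exons of Pkm overlap Gm49759 on the same strand, in both cases away from the 3' end. Transport genes for folate and serine were positive in 1 of 6 tested (median -0.45) and none passed in edgeR or DESeq2 or had an unadjusted p under 0.05. Of the 6 tested, 1 (Sfxn2) lay below wildtype without overlap, against 9.27% of all tested genes. Slc38a2, a neutral amino acid carrier, had 108 ± 51.1 CPM in Sdha-KO and 118 ± 17.4 CPM in wildtype macrophages, and Sfxn1, a mitochondrial serine carrier, had 0, 277 and 268 counts in Sdha-KO replicates 1 to 3 and 309, 143 and 268 counts in wildtype replicates 1 to 3.

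Folate genes beyond the set were mixed. Of the other folate cycle enzymes 3 of 6 tested were positive (median 0.13), and none passed in edgeR or DESeq2 or had an unadjusted p under 0.05. Ggh, which trims folate polyglutamates, had 9, 297 and 112 counts in Sdha-KO replicates 1 to 3 and 0, 61 and 166 counts in wildtype replicates 1 to 3, and Mthfs, which recovers formyl-tetrahydrofolate, had 10.2 ± 7.14 CPM in Sdha-KO and 11.6 ± 9.47 CPM in wildtype macrophages. Tyms, thymidylate synthase, chosen after its values were seen, had 0, 1 and 18 counts in Sdha-KO replicates 1 to 3 and 143, 42 and 41 counts in wildtype replicates 1 to 3, without overlap (edgeR adjusted p = 1.00). In glycine cleavage 1 of 2 tested was positive, with Gldc and Amt at 0 in all libraries. Dld, a subunit that system shares with other dehydrogenases, had 0, 146 and 139 counts in Sdha-KO and 64, 44 and 103 counts in wildtype libraries, and Gcsh had 0, 9 and 44 counts in Sdha-KO and 0, 48 and 30 counts in wildtype libraries.

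Users of one-carbon units did not pass either. In purine synthesis 8 of 12 tested were positive (median 0.24) and none passed in edgeR or DESeq2. Of the 12 tested, 2 lay above wildtype without overlap, against 5.04% of all tested genes. Paics, which carries out a pair of purine ring steps, had 1568, 428 and 546 counts in Sdha-KO replicates 1 to 3 and 54, 202 and 264 counts in wildtype replicates 1 to 3, and it was the 1 member with an unadjusted p under 0.05 (edgeR adjusted p = 1.00). Atic, which uses formyl-tetrahydrofolate in the last steps, had 44.4 ± 14.4 CPM in Sdha-KO and 29.6 ± 26.1 CPM in wildtype macrophages. In the methionine cycle 4 of 6 tested were positive (median 1.24) with no call in edgeR or DESeq2 and none at an unadjusted p under 0.05. Without overlap, 1 (Ahcyl1) lay above wildtype and 1 (Mtr) below, against 5.04% and 9.27% of all tested genes. Mat2a, which makes S-adenosylmethionine, had 94.4 ± 65.3 CPM in Sdha-KO and 105 ± 22.2 CPM in wildtype macrophages, and Ahcyl1 had 722, 225 and 425 counts in Sdha-KO replicates 1 to 3 and 0, 126 and 143 counts in wildtype replicates 1 to 3. Of genes that use serine elsewhere 3 of 4 tested were positive (median 0.53) with no call and none at an unadjusted p under 0.05. Among them Sptlc2, a subunit of the first enzyme of sphingolipid synthesis, had 94.8 ± 38.6 CPM in Sdha-KO and 82.4 ± 14.2 CPM in wildtype macrophages, and Ptdss1, which makes phosphatidylserine, had 21.3 ± 16.8 CPM in Sdha-KO and 30.4 ± 37.4 CPM in wildtype macrophages (SD, n = 3 each).

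**Figure D4:**
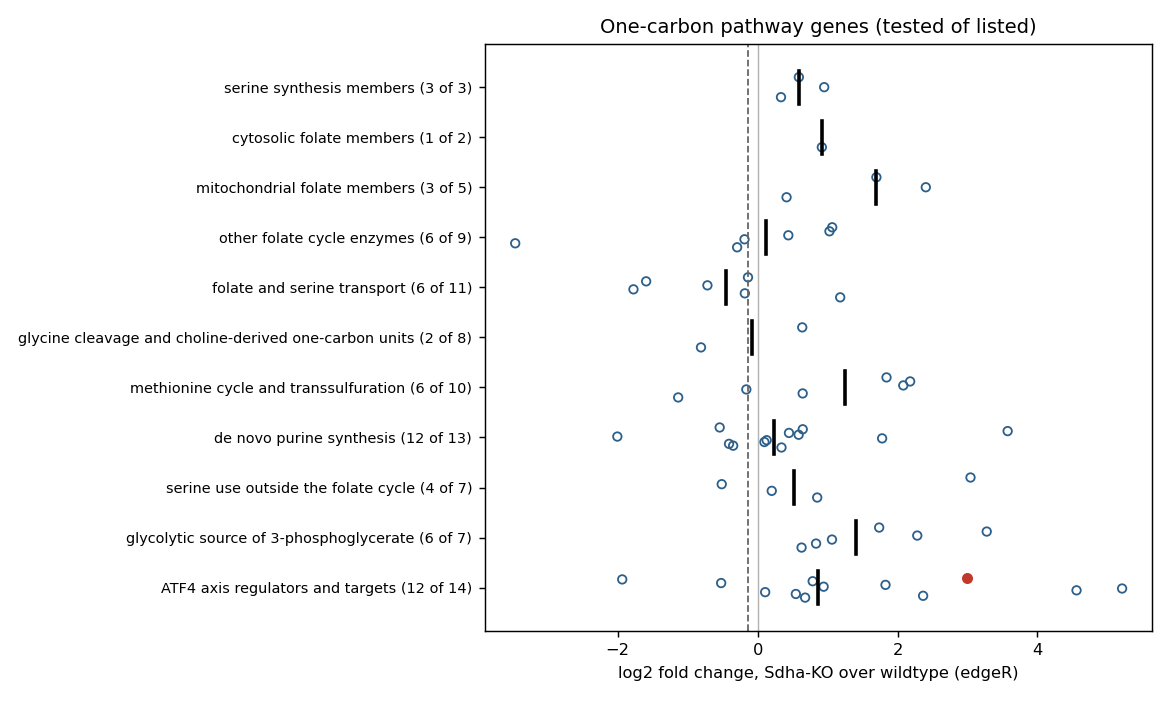
Fitted log2 fold change of Sdha-KO over wildtype (x axis, edgeR) for each tested gene of the member groups and of 8 further lists (y axis, with tested of listed genes); black bars are list medians, the dashed line the median of all tested genes (-0.13), and the filled red point the 1 gene past the threshold, Gdf15. Glycolytic genes lie on the positive side and transport genes mostly on the negative side, and Gdf15 lies at 2.99.

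A list of ATF4, related regulators and targets was read last. Of the ATF4 list 10 of 12 tested were positive (median 0.87). Without overlap, 4 lay above wildtype and 1 below, against 5.04% and 9.27% of all tested genes. Gdf15, a secreted stress cytokine, rose to 2307 ± 1296 CPM in Sdha-KO, against 290 ± 36.8 CPM in wildtype macrophages (log2 fold change 2.99, SE 0.39, edgeR adjusted p = 0.0137). This call held in 14 of 18 alternatives and was lost with the replicate block in edgeR (adjusted p = 0.402) and in limma-voom (0.192), under the filter of 10 counts in each library of a genotype (0.130) and without wildtype replicate 1 (0.148). Atf4 itself, chosen after its values were seen, had 6346, 3034 and 3337 counts in Sdha-KO replicates 1 to 3 and 2804, 1625 and 2274 counts in wildtype replicates 1 to 3. Its groups did not overlap at 530 ± 33.4 CPM in Sdha-KO and 331 ± 37.1 CPM in wildtype macrophages, and it did not pass (log2 fold change 0.68, edgeR adjusted p = 1.00), except with the replicate block and without batch 1 (edgeR adjusted p = 0.0396). That fit passed 3.01% of all genes on 1 residual degree of freedom. Asns, asparagine synthetase, also chosen after its values were seen, had 217, 57 and 139 counts in Sdha-KO replicates 1 to 3 and 0, 3 and 5 counts in wildtype replicates 1 to 3 (edgeR adjusted p = 1.00, DESeq2 with the replicate block 0.0492). DESeq2 with the block passed 0.723% of all genes. Of the 12 tested, Gdf15, Atf4, Slc3a2 and Asns lay above wildtype without overlap and Nupr1 below it, at 9.84 ± 8.53 CPM in Sdha-KO and 37.6 ± 3.13 CPM in wildtype macrophages (SD, n = 3 each). The other 7 overlapped between genotypes, Atf5, Ddit3, Cebpb, Trib3, Sesn2, Ddit4 and Slc7a11. Of these Atf5 was at 424, 46.1 and 93.2 CPM in Sdha-KO replicates 1 to 3. In wildtype replicates 1 to 3 it was at 75.4, 12.6 and 21.1 CPM (edgeR unadjusted p = 0.036). Trib3 had 0, 60 and 178 counts in Sdha-KO and 0, 0 and 12 counts in wildtype libraries. Without batch 1 and with the replicate block, edgeR called both, and 3.01% of all genes passed. Slc7a11 had a log2 fold change of -0.52.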

How the data were processed

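The authors deposited raw, whole-number read counts per gene symbol for 6 libraries. Per the submitters' processing notes, Bowtie2, bedtools and the mm10 genome were used. Versions, annotation, strand use and the handling of multiply matching reads were not given in the sources used here. Without molecular identifiers intervals cover counting error only. Sdha-KO was compared with wildtype on the whole table with edgeR 4.0.16 in R 4.3.3 (genotype as the only term; TMM factors; filterByExpr, minimum count 10; robust quasi-likelihood test), with Benjamini-Hochberg adjustment over 9963 genes and a threshold of 0.05. SEs were taken as |log2 fold change| divided by the square root of F. Alternatives used DESeq2 1.42.0 and limma-voom 3.58.1. The fitting code was tested on simulated counts. Their dispersion was lower than that of the fit to all 6 libraries, and only genes of higher CPM were changed. The simulation thus checked the code and not how well changes can be found in these data. The labels give replicate numbers as batches, so the numbers pair the samples. Deviations from group means correlated at 0.147, 0.135 and 0.103 for same-numbered libraries. For differently numbered libraries they correlated at -0.149 to 0.0874. The members, lists and alternatives were chosen with earlier results of these data known. Named genes were the 10 members, Sdha, from each further list those past the threshold or else the 2 most abundant tested, and the 5 genes most like Mthfd2. Markers, sex-linked genes and overlapping genes were named as checks, and others (Tyms, Pgam1, Eno1, Atf4, Asns, Nupr1 and genes listed by overlap) after their values were seen. Marker lists of other cells were read beside them. T or NK cell markers summed to 72.3 to 197 CPM in Sdha-KO and 268 to 524 CPM in wildtype. This sum is mostly Cd2 (135 ± 65.3 CPM in Sdha-KO and 383 ± 134 CPM in wildtype, SD, n = 3 each). Cd3e had no count in Sdha-KO libraries and 39 counts in wildtype replicate 3 alone. B cell markers summed to 0 to 27.6 CPM in Sdha-KO and 0 to 23.3 CPM in wildtype. Epithelial markers summed to 198 to 814 CPM in Sdha-KO and 284 to 469 CPM in wildtype. Endothelial markers summed to 0.558 to 13.7 CPM in Sdha-KO and 11.8 to 36.8 CPM in wildtype. Red cell markers summed to 87.0 to 388 CPM in Sdha-KO and 161 to 249 CPM in wildtype.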

Additional observations from a re-analysis of the deposited data

How the results depend on the processing

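The count of genes past the threshold was 5, and 9 with library totals alone, 48 without a filter on low counts, 21 with DESeq2, 20 with limma-voom, 72 with the replicate block in DESeq2, 27 when batch 1 was left out and 324 when it was left out and the replicate block added. It was 0 under a filter of 10 counts in each library of a genotype (255 at an unadjusted p under 0.05) and 0 with the replicate block in edgeR (296 at an unadjusted p under 0.05), and 0 to 13 when 1 library was left out. Library totals alone moved the median log2 fold change of all genes from -0.13 to 0.05 and that of Mthfd2 from 2.40 to 2.72. Mthfd2 stayed positive in all 18 alternatives (2.24 to 2.72) and passed in 2, DESeq2 with the replicate block and edgeR with the block without batch 1. Its edgeR adjusted p ran from 0.264 to 1.00 when 1 library was left out.

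Shmt2 was at -0.0815 with limma-voom. Without both batch 1 libraries Psph was at -0.24 and Mthfd1 at -0.59, and with the replicate block as well at -0.46 and -0.41. With 1 library left out, Phgdh ran from -0.0510 to 0.53, Psph from -1.08 to 1.41, Mthfd1 from -0.00487 to 2.27, Shmt2 from -0.58 to 1.01, Psat1 from 0.25 to 1.55 and Mthfd1l from 0.78 to 2.42. In limma-voom Mthfd1 was at 3.13, Psat1 at 0.32 and Mthfd1l at 0.81. The block changed no other call of a member. The mitochondrial over cytosolic difference of 0.62 was 1.99 without both batch 1 libraries, -0.95 without Mthfd2 in the mitochondrial sum and -0.22 to 1.49 with 1 library left out. It was 0.36 and 1.13 with 0.5 and 5 CPM added in place of 1, and 0.38 without the rows Rn45s, Rn4.5s and Lars2. Both sums of a library share the same scale, so leaving out these rows can change their ratio only through the added CPM. With a biological coefficient of variation of 1.40 over all libraries, Psat1 and Shmt2 had SEs of 2.55 and 2.45 on the log2 scale, and without both batch 1 libraries, with a coefficient of 0.677, SEs of 0.80 and 0.64. Neither gene passed in either fit.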
